A study of Mus musculus with 2 samples.

Results

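Imprinted genes are expressed from the maternal or the paternal chromosome only. At each such locus, an imprinting control region carries 5-methylcytosine on 1 parental allele, and long noncoding RNAs often lie beside protein-coding genes that control growth. 5-Hydroxymethylcytosine (5hmC) is made from 5-methylcytosine by TET enzymes and can lie on the path to its removal. It was measured here at 5 imprinted loci of the mouse, as lists of enriched stretches of DNA (peaks). The loci are windows of the mm9 build around 8 genes, and peaks were taken into them by position. The windows themselves were set with earlier results of these data known. A peak belonged to a window when it shared at least 1 base with it. Of 60157 peaks at passage 0, 76 lay in the windows, and of 6726 peaks at passage 5, 3 did.

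The DNA came from mouse embryonic fibroblasts (MEFs), primary connective tissue cells cultured from C57BL/6 embryos at day 13.5 and harvested either without passaging (passage 0) or at passage 5. Both groups had the same strain, medium and capture of 5hmC, the labels name no agent, and each group was 1 library. Because the strain is inbred and the lists carry no alleles, a peak cannot be given to the maternal or the paternal copy. The labels do not say how many embryos were pooled, and the fibroblast label cannot be checked in peak lists, which hold no expression values.

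The window of H19 and Igf2 was chr7:149750000-149860000. That of Kcnq1 and Cdkn1c was chr7:150290000-150660000, and that of Dlk1 and Meg3 was chr12:110680000-110850000. Igf2r was represented by chr17:12870000-12968000 and Grb10 by chr11:11825000-11945000. All 8 symbols were found in a RefSeq gene table of another build, which was used for names and gene order alone. There H19 precedes Igf2, Kcnq1 precedes Cdkn1c, Dlk1 precedes Meg3, and the antisense RNA Airn is listed next after Igf2r. This order does not show whether genes overlap. No mm9 gene models were used here, so peaks are placed by their distance from the start of the window and not by exon, intron or promoter.

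Each passage being a single library, the spread between replicates is unknown and nothing was tested across passages. Read depth is unknown too, because the lists hold no read numbers. Passage, depth and enrichment of the library cannot be told apart. In bulk DNA, fewer cells with 5hmC at a site and less 5hmC per cell cannot be told apart either. Intervals are 95% exact (Clopper-Pearson) binomial intervals, or are derived from them for ratios of peak numbers, and cover counting error only. Each peak has a score from the authors. At passage 0 the lowest, median and highest scores were 80, 129 and 3202, and at passage 5 they were 81.5, 117 and 3100. Scores are used only to rank peaks within 1 list.

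The imprinted loci, like the autosomes as a whole, carried far fewer 5hmC peaks at passage 5 than at passage 0. The windows of H19 with Igf2 and of Dlk1 with Meg3 had no peak at passage 5, and those of Kcnq1 with Cdkn1c, of Igf2r and of Grb10 had 1 each. The ratio of passage 0 to passage 5 peaks over the 5 windows was 25.3 (8.35 to 126), against 8.97 (8.74 to 9.20) over the 19 autosomes, and these intervals overlap. Peaks covered 74805 bases of the windows at passage 0, or 8.62% of their length, and 2044 bases at passage 5, or 0.235%. Of the autosomes they covered 2.37% at passage 0 and 0.161% at passage 5, less than in the windows at both passages. The passage 5 value of the windows rests on 3 peaks, so its difference from the autosomes carries no weight. The ratio of covered bases was 36.6, against 14.7 over the autosomes, and depends on the same 3 peaks. On average a passage 0 peak contributed 984 bases to this and a passage 5 peak 681.

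**Figure D1:**
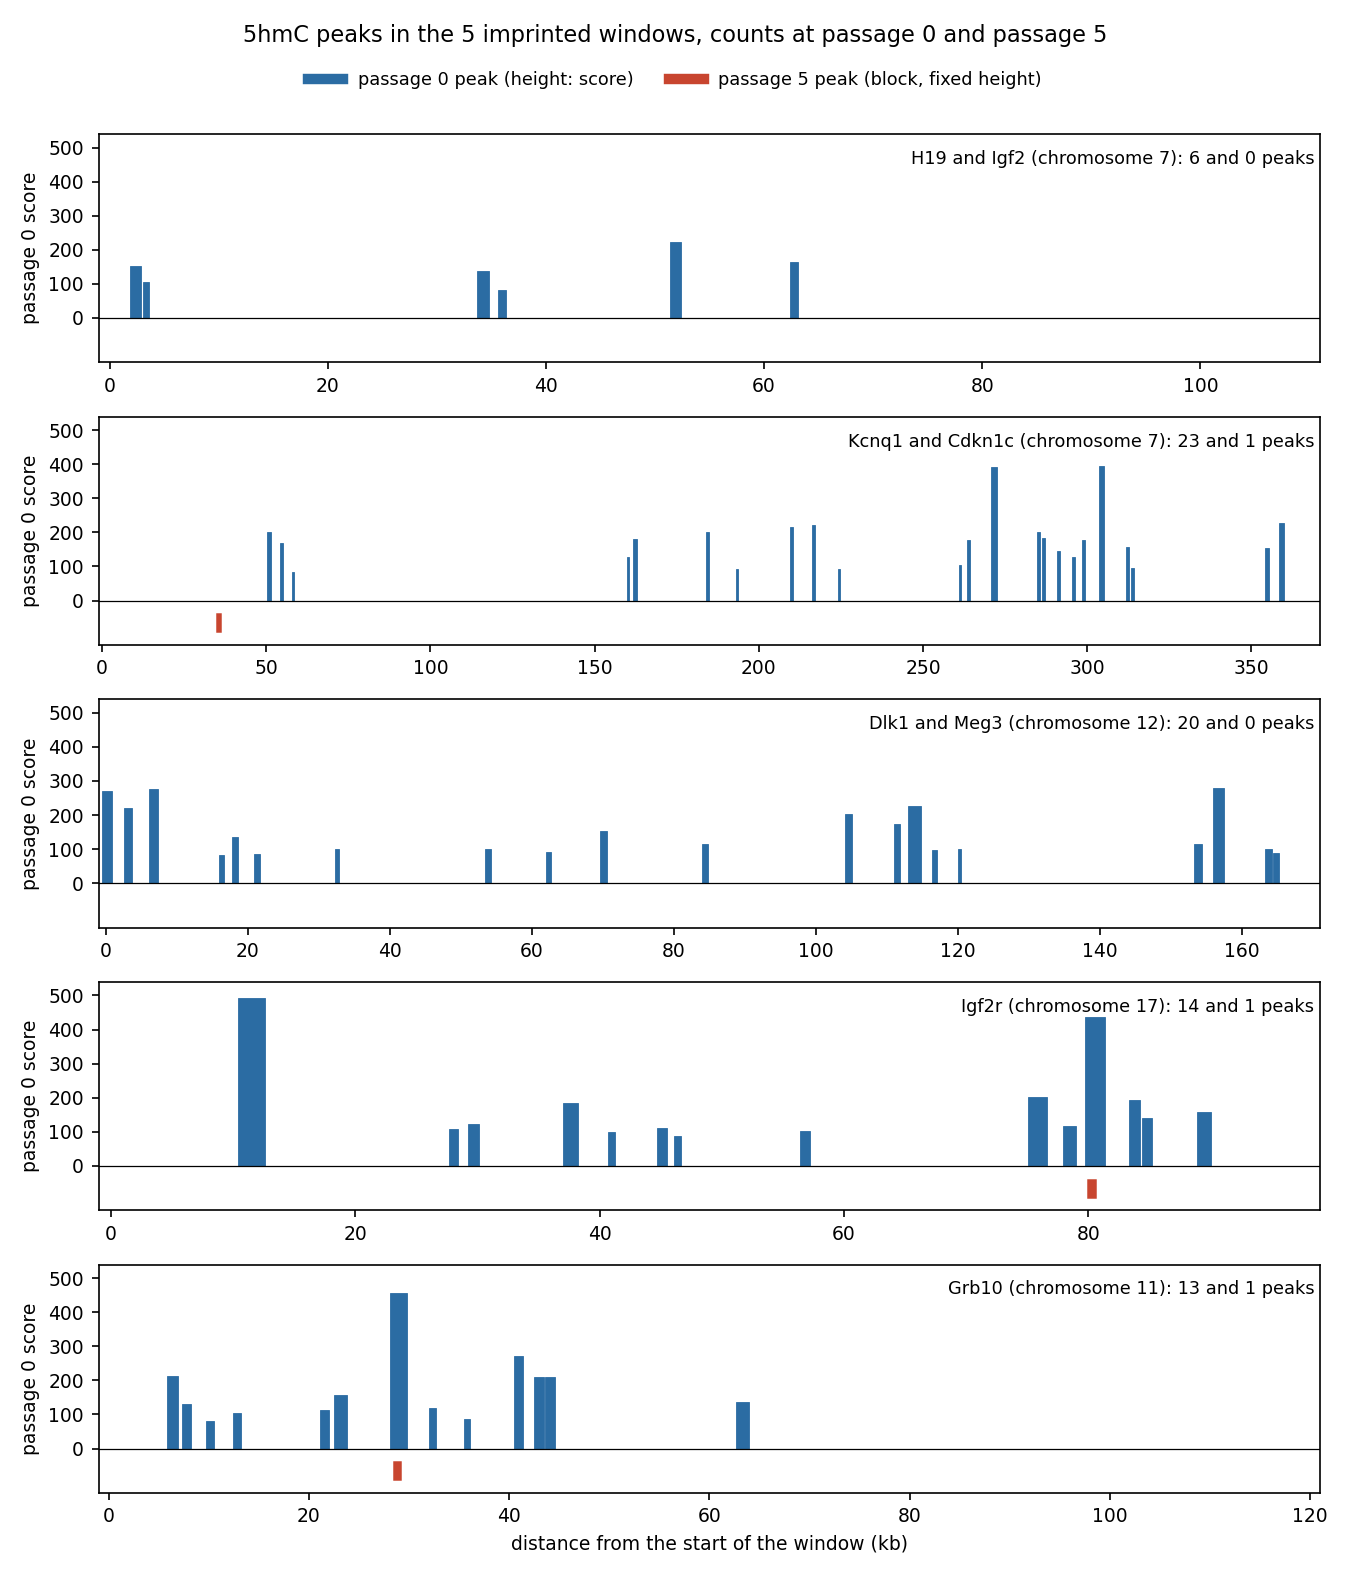
Peaks in the 5 windows by distance from the window's start in kb. Blue bars are passage 0 peaks, drawn to width, with the score as height; red blocks of fixed height under the line are passage 5 peaks. The windows hold 6, 23, 20, 14 and 13 passage 0 peaks and 0, 1, 0, 1 and 1 passage 5 peaks.

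Retention is the share of passage 0 peaks that share a base with a passage 5 peak. At these loci it was 2 of 76 peaks, or 2.63% (0.320% to 9.19%), against 7.63% of the whole passage 0 list. The interval includes the value of the whole list, so a difference was not detectable at this number of peaks. The 2 retained peaks lay in the Igf2r window, where retention was 7.14%, and in the Grb10 window, where it was 7.69%. None of the 6 peaks around H19 and Igf2 was retained, for which the exact interval reaches 45.9%. None of the 23 peaks around Kcnq1 and Cdkn1c was retained, with an upper limit of 14.8%, and none of the 20 around Dlk1 and Meg3, with an upper limit of 16.8%. Of the 3 passage 5 peaks, 2 lay on a passage 0 peak, or 66.7% (9.43% to 99.2%), against 69.9% of the whole passage 5 list.

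**Figure D2:**
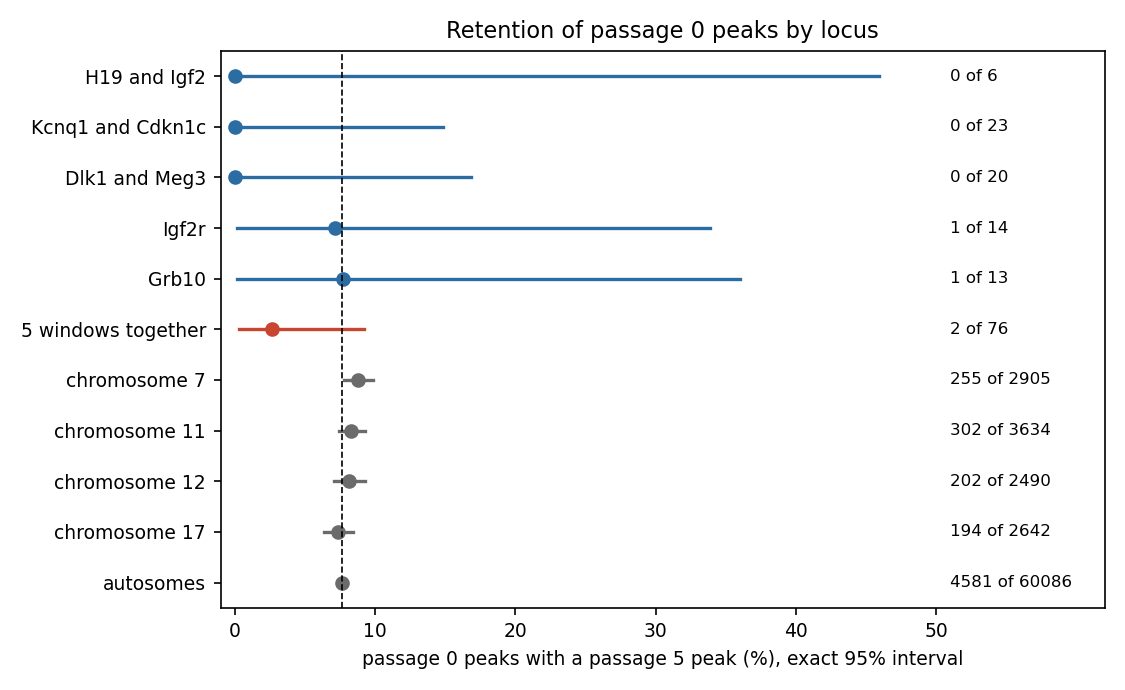
Retention of passage 0 peaks in percent for each window, in the 5 windows together, on the 4 chromosomes that hold them and on the 19 autosomes. Points are percentages, lines are exact 95% intervals, the dashed line is the autosomal value of 7.62%, and the counts stand at the right. All 5 windows and their sum have intervals that reach across the dashed line.

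At passage 0 the windows were denser in peaks than their surroundings. They held 8.76 peaks per 100 kb, against 2.51 on the autosomes. At these borders the values ran from Igf2r with 14.3 peaks per 100 kb over Dlk1 and Meg3 with 11.8, Grb10 with 10.8 and Kcnq1 and Cdkn1c with 6.22 to H19 and Igf2 with 5.45. This order depends on the borders. With 50 kb added on each side, Dlk1 and Meg3 had 12.2, Igf2r 10.1, Grb10 6.82, H19 and Igf2 6.19 and Kcnq1 and Cdkn1c 5.96 peaks per 100 kb. In each of the 5 windows the density was above that in the 500 kb on each side, where it lay between 1.70 around Grb10 and 4.30 around Dlk1 and Meg3. The flanks of both chromosome 7 windows overlap each other. Each window also held more passage 0 peaks than the upper quartile of tiles of the same width on its chromosome. These quartiles were 3 peaks for H19 and Igf2, 10 for Kcnq1 and Cdkn1c, 5 for Dlk1 and Meg3, 4 for Igf2r and 5 for Grb10. The windows are drawn around genes, while tiles also fall on stretches without genes. The windows were also set with earlier results of these data known. The comparisons with flanks, tiles and autosomes are therefore descriptions and no test of a higher density. At passage 5 the density was 0.346 per 100 kb in the windows and 0.280 on the autosomes. A window without a passage 5 peak was common: 83.2% of chromosome 7 tiles as wide as the H19 and Igf2 window had none, and 75.7% of chromosome 12 tiles as wide as the Dlk1 and Meg3 window.

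**Figure D3:**
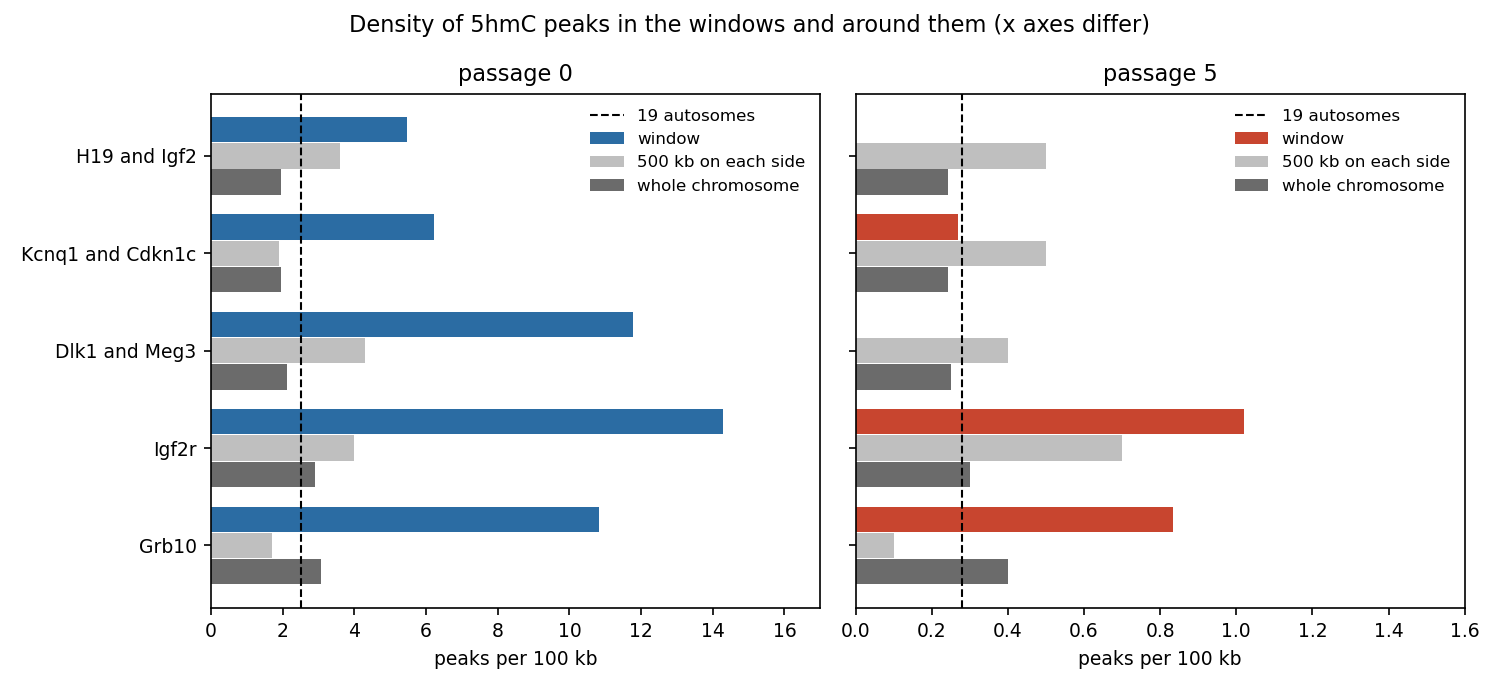
Peaks per 100 kb in each window (coloured), in the 500 kb on each side (light grey) and on its whole chromosome (dark grey) at passage 0 and at passage 5; the dashed line is the value of the 19 autosomes and the axes differ. At passage 0 every window lies above its flanks, while at passage 5 the coloured bars stand for 1 peak each or are absent.

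Igf2 encodes an insulin-like growth factor that drives fetal growth and is expressed from the paternal chromosome. H19 is a maternally expressed noncoding RNA that shares enhancers with it. The 6 passage 0 peaks of this window covered 5141 bases of it, or 4.67%. With 50 kb added on each side the window held 13 peaks, which covered 5.74%. Within the window as set, the highest score was 224, at chr7:149801337-149802392. The next were 164 at chr7:149812388-149813072 and 151 at chr7:149751902-149752909. The widest peak, chr7:149783709-149784797, had 1089 bp and a score of 138. In the passage 0 list, the highest of these scores was matched or exceeded by 18.1% of all peaks, and that of the widest peak by 44.8%. The lowest score of the window, 83.1, was matched or exceeded by 94%. The 6 peaks lay from 2.41 to 62.7 kb after the start of the window, 5 of them before its middle. The last 46.9 kb held no peak at either passage. The nearest passage 5 peaks lay 956 kb before and 232 kb after the window, so the window sits in a stretch of 1297 kb without any passage 5 peak.

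Igf2r encodes the receptor that binds IGF2 and carries it to lysosomes, and it is expressed from the maternal chromosome in the mouse. Its 14 passage 0 peaks covered 15252 bases, or 15.6% of the window. With 50 kb added on each side there were 20 peaks, which covered 10.7%, and 3 of them were retained, or 15%. In the whole passage 0 list 7.63% were retained. Both values lie inside the exact interval for the window as set, 0.181% to 33.9%. In the window as set, 567 bases or 0.579% were covered at passage 5. The longest stretch without a peak was 17.9 kb, and 6 of the 14 peaks lay after it, between 75.8 and 89.5 kb from the start of the window. The highest score of all 76 members, 493, belonged to chr17:12880384-12882641, which at 2258 bp was also the widest member. It ranked 1246 among all passage 0 peaks, and the nearest passage 5 peak was 67.4 kb away.

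The second strongest Igf2r peak was retained. It lay at chr17:12949703-12951399, with a score of 436, a rank of 1846 and a width of 1697 bp. The passage 5 peak, chr17:12950007-12950573, was 567 bp wide and lay wholly inside it, covering 33.4% of its length, with the centres 261 bases apart. Its score of 116 was close to the median of the passage 5 list. Around the retained site, 5 other passage 0 peaks lay within 10 kb of the passage 5 peak. They included chr17:12945090-12946605, which had the third highest score of the window, 201, and lay 3.40 kb from the passage 5 peak. None of these 5 could count as retained, because the only passage 5 peak of the window lay wholly inside the retained peak. Their lack of a passage 5 peak is therefore no separate result. The next passage 5 peak, chr17:12976018-12976597, with a score of 89.6, lay outside the window, 8.02 kb after its end, and also on a passage 0 peak.

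Grb10 encodes an adaptor protein that restrains signalling from the insulin and IGF1 receptors, and most tissues express it from the maternal chromosome. The 13 passage 0 peaks covered 12815 bases, or 10.7%, and the passage 5 peak covered 590 bases, or 0.492%. The first 12 peaks had their midpoints within 44.1 kb of the start of the window, and 12 of 13 had another passage 0 peak within 5 kb. After the last one the remaining 56.1 kb of the window were free of peaks. The strongest peak was the retained one, chr11:11853052-11854811, with a score of 456, a rank of 1598 and a width of 1760 bp. The passage 5 peak inside it, chr11:11853495-11854084, was 590 bp wide and covered 33.5% of it, with the centres 142 bases apart. Its score of 169 was matched or exceeded by 14.4% of the passage 5 list. The next strongest passage 0 peaks, chr11:11865474-11866337 with a score of 270 and chr11:11830810-11831951 with 213, had no passage 5 peak. Outside the window the closest passage 5 peaks were 2393 kb before it and 186 kb after it.

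**Figure D4:**
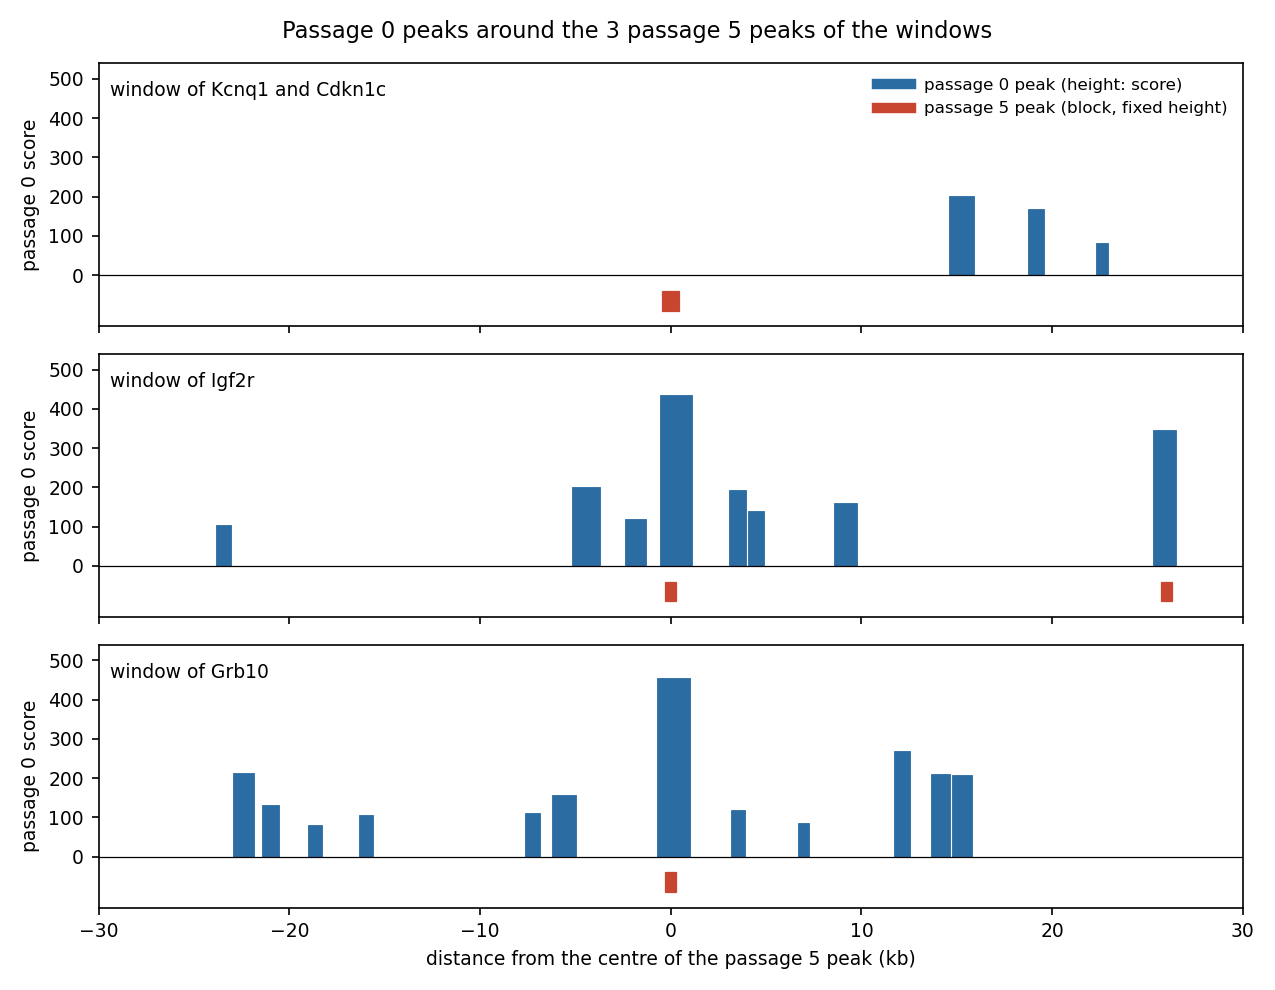
Passage 0 peaks (blue, height is the score) and passage 5 peaks (red blocks of fixed height) within 30 kb of the centre of each of the 3 passage 5 peaks in the windows. For Igf2r and Grb10 the red block at the centre lies under the retained passage 0 peak. The Igf2r panel also holds a passage 5 peak from outside the window. In the Kcnq1 and Cdkn1c window the nearest blue bar is 14.1 kb away.

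Cdkn1c encodes a cyclin-dependent kinase inhibitor that restrains growth, and Kcnq1 encodes a potassium channel subunit. The maternal chromosome expresses Cdkn1c, while the antisense RNA Kcnq1ot1, transcribed from the paternal one, silences neighbouring genes. The 23 passage 0 peaks covered 22564 bases, or 6.10% of the window, with a median score of 176. With 50 kb added on each side the median was 165. The 23 peaks were unevenly placed. A group of 3 lay between 50.8 and 58.2 kb after the start, the next 101 kb were empty, and 17 of the 23 lay beyond the middle of the window. The 2 strongest, chr7:150593497-150595157 with a score of 395 and chr7:150560778-150562601 with 393, lay there. The latter was the widest peak of the window, at 1824 bp. The third, chr7:150648521-150649812, had a score of 228 and was the last peak before the end of the window. None of these had a passage 5 peak within 200 kb.

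The passage 5 peak of the Kcnq1 and Cdkn1c window was not at any of these sites. It lay at chr7:150325096-150325982, 35.5 kb after the start. The last passage 0 peak before it ended 51.2 kb away, and the next began 14.1 kb after it. It was 887 bp wide, wider than the median passage 5 peak of 563 bp. Its score was 221, which ranked 308 in the passage 5 list. Among the 2023 passage 5 peaks without a passage 0 peak, 32 had a score at least as high, itself included. The ratio of passage 0 to passage 5 peaks in this window was 23.0 (3.73 to 947), but the peaks counted were not at the same sites.

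Dlk1 encodes a transmembrane protein related to Notch ligands and is expressed from the paternal chromosome. Meg3 is a maternally expressed noncoding RNA of the same domain. The 20 passage 0 peaks covered 19033 bases, or 11.2%, and were spread over the whole window. Of 17 consecutive bins of 10 kb, 13 held the midpoint of a passage 0 peak. The scores were mostly low, with a median of 114, below the median of the whole list. With 50 kb added on each side there were 33 peaks, with a median score of 175, above that of the list. The strongest of the 20 stood near both ends. They were chr12:110835883-110837434 with a score of 279, chr12:110686130-110687402 with 278, and chr12:110679480-110680815 with 271, which crosses the window's border. The widest, chr12:110792956-110794770, had 1815 bp and a score of 228. The nearest passage 5 peaks lay 460 kb before and 187 kb after the window, and each was on a passage 0 peak.

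The members had scores and widths near those of the whole list. Their median score was 148 and their median width 887 bp, against 129 and 850 bp, and 46 of the 76 were above the list's median score. They stood close together: 59 of 76, or 77.6%, had another passage 0 peak within 5 kb, against 57.4% of the list. This goes with the higher density of the windows.

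The 2 retained sites were among the strongest members. In score classes chosen after the values were seen, 3 members had a score of at least 400, and 2 of them were retained, while 32.1% of the 2445 such peaks of the whole list were. Of the 73 members with a lower score none was retained, against 6.59% of 57712 such peaks in the list. Between 200 and 300 there were 18 members, none retained, and in the list 13.2% of 8231 peaks. These counts are given as a description, with no test. When only as many top passage 0 peaks were kept as the passage 5 list holds, which set the lowest score at 277, 7 members were left. Of these, 2 were retained, or 28.6%, against 23.4% of that shortened list.

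**Figure D5:**
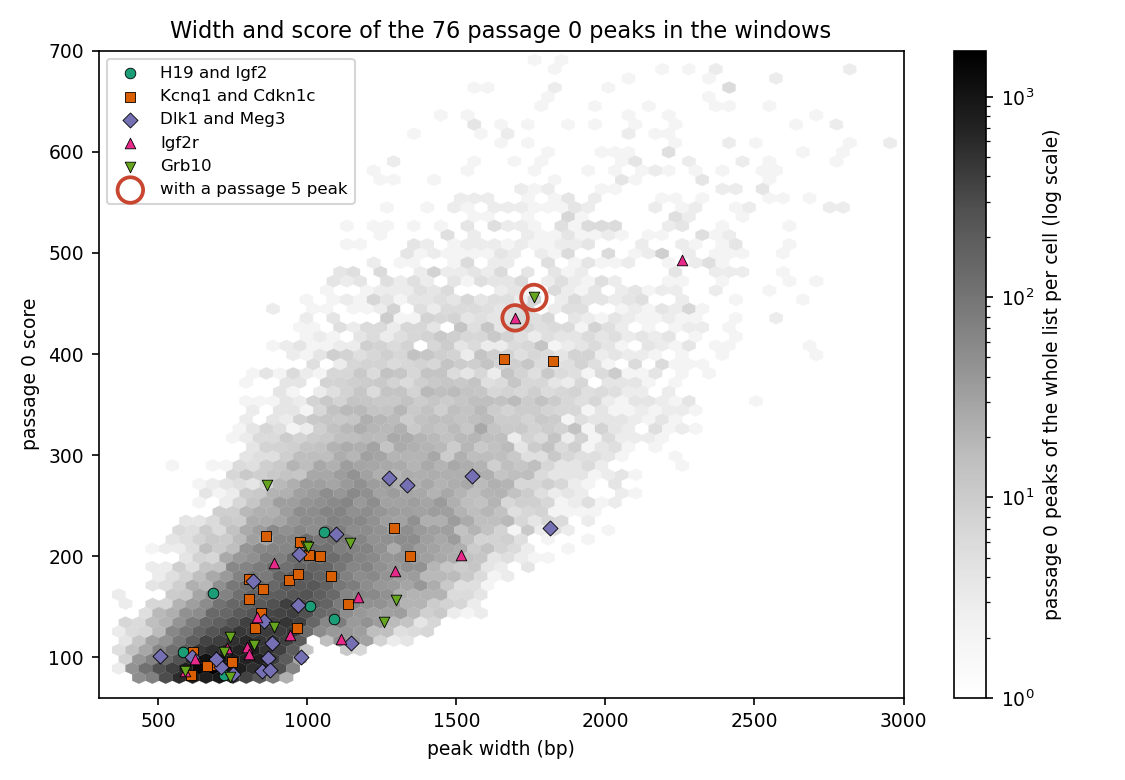
Width in bp and score of the 76 passage 0 peaks in the windows (coloured symbols, 1 colour per window) over all passage 0 peaks (grey cells, darker where there are more peaks, log scale; peaks beyond the axes are not drawn). Red circles mark the 2 members with a passage 5 peak, both with scores above 400; the triangle at a score of 493 is the strongest Igf2r peak, which was not retained.

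The 74 members without a passage 5 peak lay at varied distances from one. The same distances were not computed for the whole list, so they cannot be called long or short. The distance to the nearest passage 5 peak had a median of 196 kb and ran from 0.997 kb to 356 kb, and 6 of the 74 lay within 5 kb. The windows differed in this, but peaks of a window mostly have the same nearest passage 5 peak, so their distances are not independent. At Grb10 the median was 13.9 kb and at Igf2r 33.4 kb. It was 228 kb at Kcnq1 and Cdkn1c, 279 kb at Dlk1 and Meg3 and 306 kb at H19 and Igf2. A site outside a list has no called peak, which does not show that it lacks 5hmC.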

How the data were processed

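Per the labels, 5hmC fragments of sonicated DNA were captured with a GLIB kit and sequenced. Per the submitters' processing notes, the build was mm9 and the tools were MACS 1.4.1, Bowtie 0.12.7 and CASAVA 1.8. Not given in the sources used here are the alignment settings, any input control and the peak threshold. Each library has its own list, in which the authors deposited start, end and a score. The deposited score has no name in the lists and is not scaled between them. Other deposited values are positions, given here counted from 1.

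Peaks were assigned to windows and lists were intersected in Python 3.11.15 (pandas 2.3.3, numpy 2.4.6). Intervals came from scipy 1.17.1 and plots from matplotlib 3.10.9. Overlap counts were checked against bedtools 2.31.1 and on simulated lists. Covered bases were clipped to the window. Tiles counted peaks by midpoint between the first and last peak of a chromosome.

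Named are all passage 5 peaks, retained passage 0 peaks, and per window the 3 highest-scoring and the widest passage 0 peak. The windows and rules were chosen with earlier results of these data known. The planned results by gene feature and for other imprinted genes were not run without mm9 gene models. Alternatives covered score thresholds, list length, merging, membership, window borders and overlap.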

Additional observations from a re-analysis of the deposited data

How the results depend on the processing

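Of 178 recomputed values, 143 stayed within the 95% counting interval of the reported value (for counts, within 1.5 times) and 35 moved beyond it. Whether a value changed direction was not assessed. With the upper 50% of each list by score, the windows held 46 passage 0 peaks, and Igf2r retention was 0%, because its passage 5 peak was removed. With only as many passage 0 peaks as passage 5 peaks, 7 passage 0 peaks were left by construction. The ratio of peak numbers was then 2.33 and that of covered bases 5.88, from 7 and 3 peaks. On the autosomes this setting left 6719 passage 0 peaks beside 6700 passage 5 peaks, near equal by construction. These ratios are therefore not comparable with those of the full lists. Retention was 28.6% of these 7 peaks, or 2 peaks, beside 23.4% of the shortened list. With the full lists it was lower than the list's value, but a difference was not detectable there. No interval was computed for the 7 peaks, so no change of direction can be read from them. Retention was 50% at Igf2r and 100% at Grb10, where only 2 and 1 passage 0 peaks were left. No peak was left at H19 and Igf2, so retention had no value there. Windows extended by 50 kb held 5 passage 5 peaks, 3 of them at Igf2r, where retention was 15%, against 7.63% of the whole list. The extension also raised passage 0 peaks from 6 to 13 and covered bases from 5141 to 12063 at H19 and Igf2, and from 20 to 33 and from 19033 to 37478 at Dlk1 and Meg3. Merging peaks within 1 kb gave a median passage 0 width of 1009 bp. Intervals from so few peaks are wide, so staying inside them is no measure of stability. Retention or passage 5 counts of 0 could not change where peaks were only removed or the overlap rule was tightened. Such values are among the 143 by construction. The unknown read depth limits every count above, and no replicate could be left out.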

Other observations

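Around the imprinted windows, retention was counted in the same way, to be set beside 7.63% of the whole passage 0 list. In the 500 kb on each side of the Igf2r window, 6 of 40 passage 0 peaks were retained, or 15% (5.71% to 29.8%). Around Kcnq1 and Cdkn1c, 3 of 19 were retained, or 15.8% (3.38% to 39.6%). Around H19 and Igf2 the count was 2 of 36, and around Dlk1 and Meg3 it was 2 of 43. Around Grb10 none of 17 was retained, and the only passage 5 peak there, with a score of 206, was not on a passage 0 peak. The exact intervals of all these flanks include the value of the whole list and overlap those of the windows, so no difference was detectable. The flanks of H19 with Igf2 and of Kcnq1 with Cdkn1c overlap on chromosome 7 and reach into each other's window, so their counts are not independent.

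The passage 5 peak of the Kcnq1 and Cdkn1c window scored higher within its list than those of Igf2r and Grb10, although it was the one of the 3 without a passage 0 peak.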
